A study of Equus caballus with 21 samples.

Results

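Transcripts of lymphocyte genes were followed through the compartments of horse endometrium that had been cut out by laser capture microdissection, a method that collects chosen areas of a stained tissue section under a microscope. The genes were GZMA, CD3D, CD3E, CD3G, CD2, CD8A, CD4, PTPRC, CCL5 and NKG7, chosen by symbol as markers of T cells, cytotoxic lymphocytes and leukocytes in general. All 10 were found among the 24942 gene IDs of the count table, and 9 had a count in at least 1 of the 21 libraries. NKG7, a membrane protein of cytotoxic granules, had no count in any library.

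The libraries came from day 12 of pregnancy or day 12 of the estrous cycle, from warmblood mares B, C, J, M and U. The luminal epithelium, which lines the uterine cavity, gave 4 pregnant libraries (mares B, C, M and U) and 5 cyclic libraries (mares B, C, J, M and U). The glandular epithelium gave 4 pregnant and 4 cyclic libraries, each from mares B, C, M and U. The stroma, the connective tissue between them, gave 2 pregnant libraries (mares M and U) and 2 cyclic libraries (mares B and M). Ovulation was induced with human choriogonadotropin in both states, the pregnant state followed insemination with fresh cooled semen, and each biopsy was taken on day 12, the day on which PGF2a, a prostaglandin, was also given to end the luteal phase. The same letter marks the same mare, so the 2 states were compared within animals as well as between groups. A captured area is a cut of tissue and can hold cells that lie within it, and from such a sample fewer cells of a type and less RNA per cell cannot be told apart.

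T cells recognise antigen through a receptor whose signal is carried by the CD3 chains, and the coreceptors CD8 and CD4 mark its cytotoxic and helper branches. Cytotoxic T cells and natural killer cells store granzymes in granules that they release onto target cells. In the uterus of mammals, lymphocytes lie within the epithelium as well as in the stroma, and their numbers and activity are a subject of interest in early pregnancy because the conceptus meets the luminal epithelium first.

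Total counts ran from 136259 to 1382614 in luminal libraries, from 222623 to 1467510 in glandular libraries and from 138441 to 1175127 in stromal libraries. Levels are in CPM, counts scaled to an effective library size, and 1 count was worth 0.567 to 6.82 CPM, so many values below rest on few reads. Marker genes of epithelium (11 found of 13 listed) summed to 953 to 3177 CPM in luminal, 1352 to 15564 CPM in glandular and 83.8 to 673 CPM in stromal libraries. Markers of stromal fibroblasts (14 found of 15) summed to 653 to 5091 CPM in luminal, 419 to 1658 CPM in glandular and 5907 to 13827 CPM in stromal libraries. Mare M's pregnant luminal and cyclic glandular libraries are missing from 1 of the authors' tables, and 18S ribosomal RNA made up 0.452% and 0.293% of their counts, as it did 0.819% in pregnant stroma of mare U, against 7.29% to 66.2% in the others. With those 2 libraries left out, the same member calls were made in the tests within each epithelium and between the epithelia.

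GZMA, the serine protease granzyme A of cytotoxic granules, was the member most closely tied to the luminal libraries. It had 184 counts in 7 of 9 luminal libraries, 1 count in 1 of 8 glandular libraries and 1 count in 1 of 4 stromal libraries. In pregnant luminal epithelium GZMA stood at 15.4, 51.9, 72.1 and 271 CPM in mares B, C, M and U, and in cyclic luminal epithelium at 14.5, 26.0, 0, 0 and 1.65 CPM in mares B, C, J, M and U. Each pregnant library had GZMA reads, whereas those of mares J and M had none in the cycle, and the groups overlapped through mares B and C. In the glands GZMA had 0.567 CPM in pregnant mare C and no count in the other libraries, and in the stroma it had 1.88 CPM in pregnant mare M and no count elsewhere. The absence of NKG7 counts allowed a level of up to 0.265 CPM, 3 counts over the 21 libraries.

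The CD3 chains, the signalling subunits of the T cell receptor, were also found mainly in luminal libraries. CD3D had 165 counts in 7 of 9 luminal libraries, 18 counts in 2 of 8 glandular libraries and 10 counts in 2 of 4 stromal libraries. It stood at 0, 0, 10.3 and 206 CPM in pregnant luminal libraries from mares B, C, M and U, and at 6.23, 24.2, 9.32, 9.38 and 74.3 CPM in cyclic luminal libraries from mares B, C, J, M and U. Mare U was highest in both states, and the groups overlapped. Outside the luminal epithelium, CD3D had 2.28 CPM in pregnant and 14.0 CPM in cyclic glands of mare B, 1.88 CPM in pregnant stroma of mare M and 31.4 CPM in cyclic stroma of mare B. CD3D and CD3G overlap each other on the RefSeq gene table of the horse assembly TB-T2T, and no source says that strand was kept, so reads from the stretch they share cannot be told apart.

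CD3G had 91 counts in 6 of 9 luminal libraries and 1 count each in 1 of 8 glandular and 1 of 4 stromal libraries. Its levels were 38.4, 18.9, 0 and 0 CPM in pregnant luminal libraries from mares B, C, M and U, against 8.30, 51.9, 9.32, 3.13 and 0 CPM in cyclic luminal libraries from mares B, C, J, M and U. The pregnant libraries with CD3G reads were thus those without CD3D reads, and the reverse. CD3E, the chain that overlaps MPZL3 and MPZL2 on the same table, was the scarcest member with reads. It had 7 counts in 3 of 9 luminal libraries, none in the 8 glandular libraries and 4 counts in 1 stromal library, that of pregnant mare U.

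CD2, an adhesion receptor of T cells and natural killer cells, had 54 counts in 5 of 9 luminal libraries, 26 counts in 4 of 8 glandular libraries and none in the 4 stromal libraries. Most of the luminal reads came from mare C in pregnancy, with 77.8 CPM, while the cyclic luminal libraries ran from 0 to 20.8 CPM. CD8A, the coreceptor chain of cytotoxic T cells, had 55 counts in 6 of 9 luminal libraries, 17 counts in 2 of 8 glandular libraries and none in the stroma. It stood at 0, 0, 149 and 5.16 CPM in pregnant luminal libraries from mares B, C, M and U, against 0, 0.895, 29.8, 6.25 and 8.26 CPM in cyclic luminal libraries from mares B, C, J, M and U. Pregnant mare M, the library with the fewest reads of all, had a higher CD8A level than the other luminal libraries summed. CD4, the coreceptor of helper T cells that human macrophages also carry, did not share the luminal pattern. It had 38 counts in 5 of 9 luminal libraries, 68 counts in 3 of 8 glandular libraries and 17 counts in 1 of 4 stromal libraries, with its highest values of 103 CPM in cyclic glands of mare C, 63.7 CPM in pregnant luminal epithelium of mare C and 59.3 CPM in cyclic stroma of mare B.

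PTPRC, which encodes the leukocyte common antigen CD45 and is carried by nearly every white blood cell, was the most abundant member. It averaged 95.9 CPM over the 21 libraries and had counts in 8 of 9 luminal, 5 of 8 glandular and 4 of 4 stromal libraries. In pregnant luminal epithelium it stood at 2.56, 2.36, 0 and 72.2 CPM in mares B, C, M and U, and in cyclic luminal epithelium at 255, 72.5, 129, 3.13 and 124 CPM in mares B, C, J, M and U. The pregnant value was the lower one in 4 of 4 mares, but mare M had 1 count or fewer in both states. In the glands it stood at 0, 11.9, 9.40 and 36.2 CPM in pregnant mares B, C, M and U, and at 20.6, 0, 0 and 50.2 CPM in cyclic mares B, C, M and U. The stroma had 79.1 and 90.1 CPM in pregnant mares M and U, below the 799 and 257 CPM of cyclic mares B and M.

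CCL5, a chemokine that T cells, natural killer cells and other cells release, was spread over all compartments. It had 104 counts in 6 of 9 luminal, 98 counts in 5 of 8 glandular and 74 counts in 3 of 4 stromal libraries. Its levels were 120, 4.72, 0 and 5.16 CPM in pregnant and 0, 0.895, 37.3, 0 and 52.9 CPM in cyclic luminal libraries, in the order of mares B, C, M and U and of mares B, C, J, M and U. Single libraries also stood out elsewhere, with 169 CPM in pregnant glands of mare U, 86.6 CPM in pregnant stroma of mare M and 94.2 CPM in cyclic stroma of mare B. The ranges of the compartments and states overlapped.

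**Figure D1:**
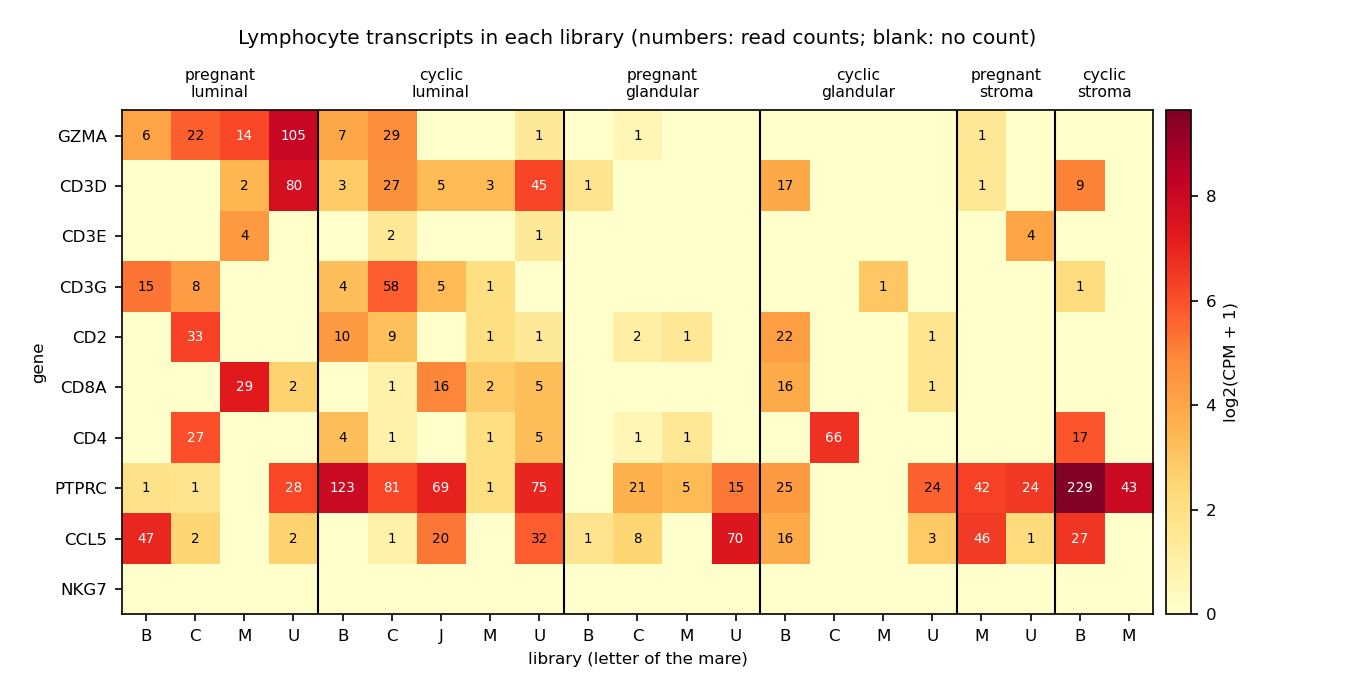
Level of each lymphocyte transcript (rows) in each of the 21 libraries (columns, with the letter of the mare), as log2(CPM + 1) in colour and as the read count in figures; a field without a figure had no count. GZMA and the CD3 chains filled mainly the luminal columns, PTPRC was strongest in cyclic stroma of mare B with 229 counts, and NKG7 had none.

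Detection, the presence of at least 1 count, was also set beside that of genes in general. The 10 genes had a count in 53 of 90 gene-library pairs (58.9%) in luminal epithelium, 23 of 80 (28.8%) in glandular epithelium and 13 of 40 (32.5%) in stroma. All genes with a count in any library were detected in 50.2% of luminal, 54.2% of glandular and 36.8% of stromal pairs. The share of the members thus lay above that of all genes in luminal libraries and below it in glandular ones. The 10 genes include NKG7, without a count anywhere, which lowers their share, while the set of all genes leaves such genes out. The luminal libraries held 4456462 counts in total and the glandular ones 5511727. GZMA, the CD3 chains, CD2 and CD8A, members restricted mainly to T cells and cytotoxic lymphocytes, had a count in 34 of 54 luminal pairs (63.0%), 10 of 48 glandular pairs (20.8%) and 5 of 24 stromal pairs (20.8%). NKG7, a gene of the same kind, had no count in any library and is not in this set. With it each of these shares would be lower. Pairs of 1 library share its depth and were not tested.

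**Figure D2:**
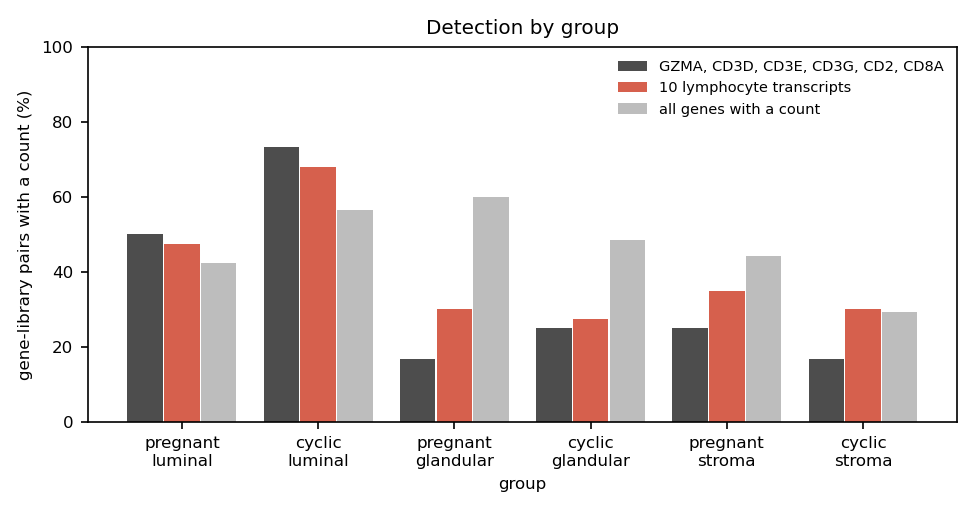
Share of gene-library pairs with a count in each group, in percent, for GZMA, CD3D, CD3E, CD3G, CD2 and CD8A (dark bars), for all 10 lymphocyte transcripts (red bars) and for all genes with a count in any library (grey bars). The dark bars stood for 12 of 24 pairs in pregnant and 22 of 30 in cyclic luminal libraries, above the grey bars, and for 2 of 12 to 6 of 24 in the other groups, below them.

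Summed over the 10 genes, the level was 177, 219, 252 and 560 CPM in pregnant luminal libraries from mares B, C, M and U, and 313, 187, 214, 28.1 and 273 CPM in cyclic luminal libraries from mares B, C, J, M and U. The glandular sums were 4.56, 18.7, 13.2 and 205 CPM in pregnant and 79.0, 103, 6.82 and 60.7 CPM in cyclic libraries from mares B, C, M and U. In each of the 8 biopsies that gave both epithelia, the luminal sum was the higher one. The stromal sums were 170 and 109 CPM in pregnant mares M and U, against 987 and 257 CPM in cyclic mares B and M, of which PTPRC made up 46.7%, 82.8%, 80.9% and 100%. As means, the sums came to 302 ± 175 CPM in pregnant (SD, n = 4) and 203 ± 110 CPM in cyclic luminal libraries (n = 5), to 60.4 ± 96.7 CPM in pregnant and 62.4 ± 41.0 CPM in cyclic glandular libraries (n = 4 each), and to 139 ± 42.9 CPM in pregnant and 622 ± 516 CPM in cyclic stromal libraries (n = 2 each). The ratio of the group means was 0.57 on the log2 scale between pregnant and cyclic luminal libraries, where 3 of 4 mares were higher in pregnancy, -0.05 between pregnant and cyclic glandular libraries, where 2 of 4 were, and 2.03 between luminal and glandular epithelium.

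Without CD4, CCL5 and PTPRC, which other cell types also express, the luminal libraries stood farther from the rest. The remaining members summed to 53.8, 149, 252 and 483 CPM in pregnant luminal libraries from mares B, C, M and U, and to 49.8, 113, 48.5, 21.9 and 87.6 CPM in cyclic luminal libraries from mares B, C, J, M and U. The glandular libraries had 2.28, 1.70, 1.88 and 0 CPM in pregnant and 45.3, 0, 6.82 and 4.18 CPM in cyclic mares B, C, M and U, and the stroma had 3.77 and 15.02 CPM in pregnant mares M and U and 34.9 and 0 CPM in cyclic mares B and M. Each luminal value exceeded the glandular value of the same biopsy, in 8 of 8 biopsies, and the pregnant luminal value exceeded the cyclic one in 4 of 4 mares, with overlap between the groups. Over the 8 biopsies these genes had 530 luminal and 63 glandular counts, a ratio of 12.1 per effective library size (95% Clopper-Pearson interval 9.29 to 15.9, counting error only). Cyclic mare B gave 55 of the 63 glandular counts, and without its biopsy the ratio was 81.2 (40.9 to 189), while it was 8.04 without that of pregnant mare U. In the 4 biopsies that gave both luminal epithelium and stroma they had 267 luminal and 16 stromal counts, a ratio of 15.1 (9.12 to 26.8, counting error only), which was 6.59 without pregnant mare U, 9.43 without pregnant mare M and 43.3 without cyclic mare B. The sums were formed from genes chosen with the data known and carry no test.

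**Figure D3:**
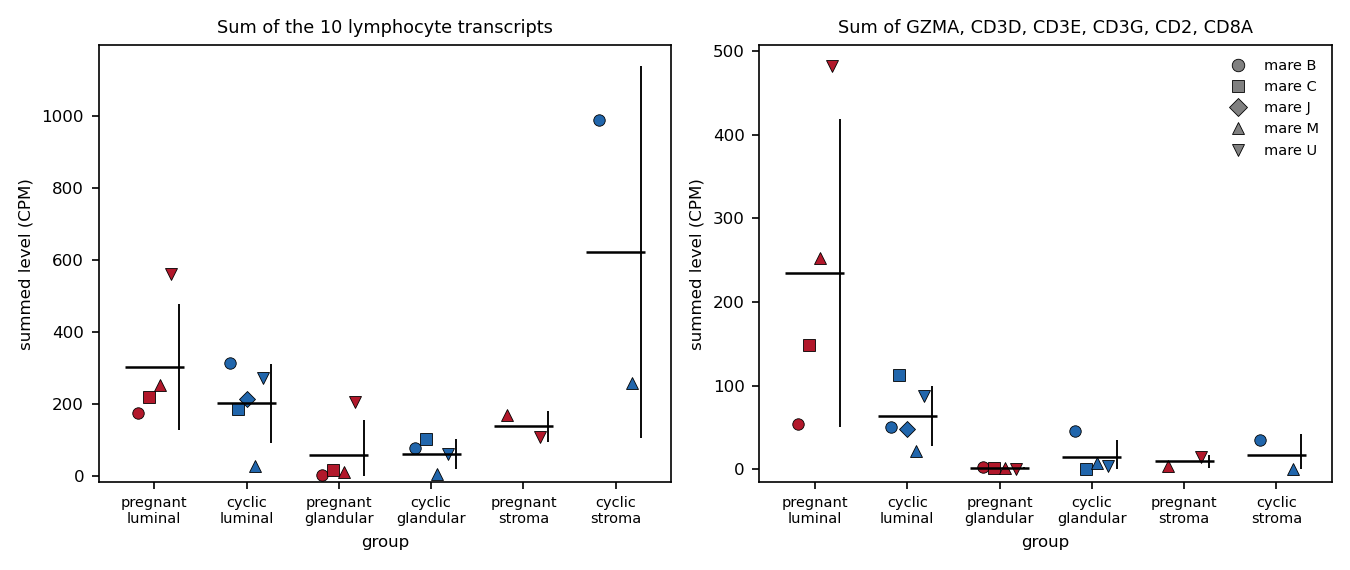
Summed level in CPM of all 10 lymphocyte transcripts (left) and of GZMA, CD3D, CD3E, CD3G, CD2 and CD8A (right) in each library, by group; symbols stand for mares, horizontal lines for group means and vertical lines for ± 1 SD, drawn no lower than 0. On the left cyclic stroma of mare B was highest with 987 CPM, and on the right pregnant luminal epithelium of mare U was highest with 483 CPM while no glandular or stromal library exceeded 45.3 CPM.

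The 2 epithelia were compared directly in the 4 mares that gave both, where the counts of the 2 states were summed per mare and the mare was a block. GZMA was higher in luminal than in glandular epithelium in each mare, and it was the member that passed the test. Its summed counts were 13, 51, 14 and 106 in luminal epithelium of mares B, C, M and U, against 0, 1, 0 and 0 in glandular epithelium. The log2 fold change was 7.31 ± 2.17 (SE; edgeR quasi-likelihood F test, two-sided, Benjamini-Hochberg adjusted p = 0.0151 over 7174 genes), and the groups did not overlap. Pooled over the libraries, 184 luminal counts against 1 glandular count gave a ratio of 264 with a 95% counting interval of 46.8 to 10491, or 117 (20.3 to 4663) without pregnant mare U. In this comparison 6.94% of all genes tested passed the threshold of 0.05, 236 higher and 262 lower in luminal epithelium.

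GZMA met the minimum count of the test through its luminal counts alone. In all, 4 of the 10 members were tested, and 1 was called. Without a filter on low counts 9 members were tested and GZMA was again the 1 called (adjusted p = 0.0321), where 2.7% of all genes were called. DESeq2, which called 11.8% of the genes to which it gave an adjusted p, called GZMA (7.33 ± 1.53, adjusted p = 7.3e-05) and also CD3D (6.10 ± 1.72, adjusted p = 0.00635). The GZMA call was lost when mare B, C or U was left out, with log2 fold changes of 7.30, 8.11 and 6.69 and adjusted p of 0.12, 0.0949 and 0.168, and it was kept without mare M (7.23, adjusted p = 0.0451). It did not reach the threshold within either state alone, at 7.42 in pregnant (adjusted p = 0.2995) and 5.72 in cyclic biopsies (adjusted p = 0.968), both without a filter.

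CD3D had 3, 27, 5 and 125 summed counts in luminal epithelium of mares B, C, M and U, against 18, 0, 0 and 0 in glandular epithelium. It was higher in luminal epithelium in mares C, M and U and lower in mare B, and its log2 fold change of 5.55 ± 2.62 did not pass the edgeR test (adjusted p = 0.262). PTPRC had 124, 82, 1 and 103 luminal counts against 25, 21, 5 and 39 glandular counts in the same mares, with a log2 fold change of 1.60 ± 1.38 (adjusted p = 0.705). CCL5 had 47, 3, 0 and 34 luminal counts against 17, 8, 0 and 73 glandular counts, and its log2 fold change of 0.03 ± 2.89 (adjusted p = 0.999) gave it no direction. Among the members below the minimum count, CD3G had 86 luminal counts and 1 glandular count, a ratio of 123 with a counting interval of 21.6 to 4933, in which mare U gave no luminal read and which was 49.8 without cyclic mare C. CD3E had 7 luminal counts and no glandular count, 3.35-fold higher if the glandular libraries are given a floor of 3 counts, with a counting interval that starts at 2.07. Without pregnant mare M 3 luminal counts were left and the interval started at 0.565. The ratios of CD2 and CD8A were 2.98 (1.84 to 4.96) and 3.29 (1.82 to 6.21), and that of CD4 was 0.802 (0.525 to 1.21). Single biopsies set these values: the ratio of CD2 was 0.967 without pregnant mare C and 14.1 without cyclic mare B, that of CD8A 0.805 without pregnant mare M and 50.1 without cyclic mare B, and that of CD4 0.181 without pregnant mare C and 32.9 without cyclic mare C. These intervals leave out the spread between mares. They also treat each read as an independent count, which amplified reads are not, so they can be too narrow even for counting error.

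**Figure D4:**
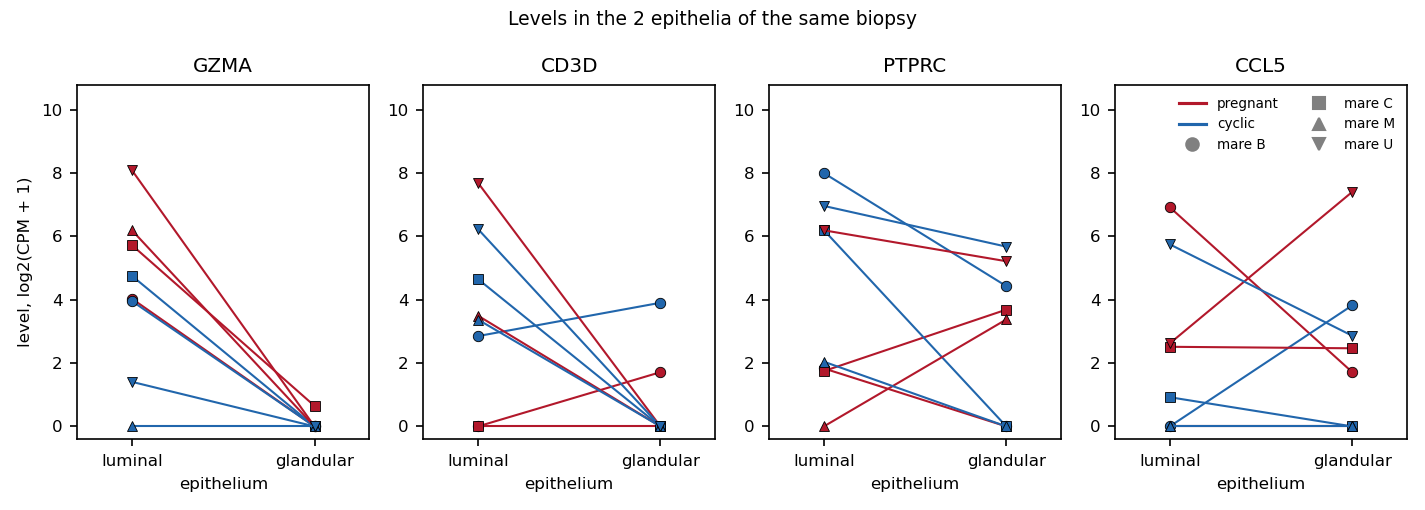
Levels of GZMA, CD3D, PTPRC and CCL5 as log2(CPM + 1) in luminal and glandular epithelium of the same biopsy; each line is 1 biopsy, red for pregnant and blue for cyclic, with a symbol for the mare. GZMA was higher in luminal epithelium in 7 of 8 biopsies and without a count on either side in cyclic mare M, whereas PTPRC was higher in luminal epithelium in 6 of 8 and CCL5 in 4 of 8.

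Stromal fibroblast markers summed higher in luminal than in glandular epithelium in 6 of 8 biopsies, and lower in cyclic mares M and U, with 1329 against 1658 CPM and 653 against 697 CPM. The 4 stromal libraries, where these markers were highest, held 1 GZMA count among 1757422 counts in total, against 4456462 in the luminal libraries. Pregnant mare M gave 1175127 of the stromal counts, and 18S ribosomal RNA made up 66.2% of that library. By effective library size, 3 counts stood for 2.40 CPM over the stromal and 0.673 CPM over the luminal libraries. The part of stromal cells in the luminal GZMA values was not tested. Macrophage and dendritic cell markers (18 found of 20, of which MARCO, CD86 and BATF3 had no count) summed to 11.6 to 510 CPM in luminal and 11.3 to 137 CPM in glandular libraries, and their part in the PTPRC and CD4 values was not tested.

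Against the stroma, GZMA had 126 luminal counts and 1 stromal count in the biopsies of pregnant mares M and U and cyclic mares B and M, a ratio of 114 (20.1 to 4535, counting error only), or 20.8 (3.34 to 859) without pregnant mare U. It did not reach the minimum count there, and without a filter its log2 fold change of 5.97 ± 3.32 did not pass (adjusted p = 0.955; 0.232% of all genes called). CD8A had 33 luminal and no stromal counts, at least 9.95-fold higher against a floor of 3 counts over the stromal libraries (counting interval from 7.64), but 29 of the 33 came from pregnant mare M. CD2 had 11 luminal and no stromal counts, of which 10 came from cyclic mare B. CCL5 had 2 luminal and 74 stromal counts, a ratio of 0.0244 (0.00291 to 0.0914), and CD4 had 5 and 17, a ratio of 0.266 (0.0767 to 0.751), with each of the 17 in cyclic mare B. PTPRC was also the lower in luminal epithelium, with 152 luminal and 338 stromal counts and a log2 fold change of -2.30 ± 1.47 (edgeR adjusted p = 0.711), where 1.74% of all genes were called. The median of all genes in that comparison was 0.60. No member was called by edgeR in luminal epithelium against stroma, with or without the filter. DESeq2 called 310 of 4752 genes and none of the 4 members to which it gave an adjusted p.

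Between glandular epithelium and stroma, PTPRC had 45 glandular and 338 stromal counts in the biopsies that gave both. Its log2 fold change of -3.70 ± 1.62 had an unadjusted p of 0.0225 and did not pass after adjustment (edgeR adjusted p = 0.353), while 1.3% of all genes did, or 0.149% without the filter, around a median of 1.07. CCL5 had 86 glandular and 74 stromal counts, and its log2 fold change of -2.56 ± 3.64 (adjusted p = 0.897) turned to 0.97 without mare M. GZMA had no glandular and 1 stromal count in these biopsies. No member was called by edgeR, with or without the filter. DESeq2 called 272 of 5368 genes and neither of the 2 members to which it gave an adjusted p.

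In luminal epithelium the pregnant and the cyclic libraries were compared without a block, and 0.437% of the 4344 genes tested were called, 15 higher and 4 lower in pregnancy. PTPRC was the 1 member that reached the minimum count. Its log2 fold change was -2.59 ± 1.56 (edgeR adjusted p = 0.751), with 19.3 ± 35.3 CPM in pregnant (SD, n = 4) and 117 ± 92.5 CPM in cyclic libraries (n = 5). The macrophage and dendritic cell markers were on average also lower in pregnancy, at 111 ± 132 CPM in pregnant and 271 ± 186 CPM in cyclic luminal libraries, and their part in the PTPRC difference was not tested. The pan-leukocyte genes summed to 586 ± 274 CPM in pregnant and 579 ± 236 CPM in cyclic luminal libraries. Without the filter GZMA had a log2 fold change of 3.52 ± 1.74 with an unadjusted p of 0.0438, which did not pass after adjustment (adjusted p = 0.365; 0.0868% of all genes called). GZMA averaged 103 ± 115 CPM in pregnant and 8.43 ± 11.5 CPM in cyclic luminal libraries, and was higher in pregnancy in 4 of 4 mares, in mare B by 15.4 against 14.5 CPM. The cytotoxic and natural killer genes as a list summed to 439 ± 435 CPM in pregnant and 603 ± 134 CPM in cyclic luminal libraries, the T cell genes to 360 ± 339 CPM in pregnant and 508 ± 140 CPM in cyclic ones, and GNLY had a log2 fold change of -0.08 ± 1.38 (edgeR adjusted p = 0.995). Epithelial markers summed to 2506 ± 648 CPM in pregnant and 1320 ± 274 CPM in cyclic luminal libraries and stromal fibroblast markers to 2746 ± 1763 CPM and 1217 ± 512 CPM in the same order, and their part in the GZMA difference was not tested. With the mare as a block PTPRC, the 1 member then tested, had -4.02 (adjusted p = 0.875), and without pregnant mare U it had -5.83 (adjusted p = 0.250). With the block and no filter GZMA had 3.37 ± 2.53 (adjusted p = 0.955), and 0 of 9 members were called. DESeq2 gave 4 members an adjusted p and called none, where it called 90 of 6559 genes.

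In glandular epithelium, where 0.0623% of the genes tested were called between pregnant and cyclic libraries, no member reached the minimum count. Without the filter, 8 members were tested and 0 called, with 0.246% of all genes called. CD8A, with no pregnant and 17 cyclic counts, and CD4, with 2 pregnant and 66 cyclic counts, had unadjusted p of 0.0440 and 0.0438 and an adjusted p of 0.469 each. Of the 17 CD8A counts 16 came from cyclic mare B, and the 66 CD4 counts all came from cyclic mare C. CCL5 averaged 43.9 ± 83.4 CPM in pregnant and 4.86 ± 6.28 CPM in cyclic glands (SD, n = 4 each), with 70 of the 79 pregnant counts in mare U. DESeq2 called 1 of 12470 genes and none of the 6 members to which it gave an adjusted p.

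The stroma had 2 libraries per state, which shared mare M alone. PTPRC averaged 84.6 ± 7.80 CPM in pregnant and 528 ± 383 CPM in cyclic stroma (SD, n = 2 each), and both cyclic values lay above both pregnant ones. Its log2 fold change was -2.66 ± 1.85 (edgeR adjusted p = 0.999). Macrophage and dendritic cell markers summed to 84.8 and 270 CPM in pregnant mares M and U and to 882 and 228 CPM in cyclic mares B and M, and their part in the difference was not tested. Of 2212 genes edgeR called 0 (0%), and 88 had an unadjusted p under 0.05. DESeq2 called 0 of 10162 genes, with 7 members among them. Without the filter edgeR called 0.0197% of all genes and none of 7 members.

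The difference of the pregnancy effect between the epithelia, glandular minus luminal, was tested with the biopsy as a block. PTPRC, again the 1 member that reached the minimum count, had a difference of 4.28 ± 3.21 on the log2 scale (edgeR adjusted p = 0.888), against a median of 1.28 over all genes. Of all genes tested 0.0145% were called, and 0.00664% without the filter, where 9 members were tested and 0 called. GZMA had a difference of -1.68 ± 5.25 without the filter, too wide an error to give a direction. DESeq2 called 40 of 5713 genes and neither of the 2 members to which it gave an adjusted p.

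Other genes of lymphocytes were taken from 5 lists chosen for their known roles. In luminal against glandular epithelium, 4 of the 26 cytotoxic and natural killer genes found reached the minimum count. GNLY, the granule protein granulysin, was higher in luminal epithelium, with counts in 7 of 9 luminal and 2 of 8 glandular libraries and a log2 fold change of 7.03 ± 1.69 (edgeR adjusted p = 0.00118). Like GZMA it had few counts on the glandular side and met the minimum count through its luminal libraries. ID2, a transcriptional regulator of innate lymphoid cells among others, was higher by 2.88 ± 0.89 (adjusted p = 0.0230). NCAM1, an adhesion molecule used as a human natural killer cell marker, was lower, with 3.13 to 44.8 CPM in luminal and 183 to 1215 CPM in glandular libraries (-4.48 ± 0.67, adjusted p = 3.52e-09). NCAM1 had counts in 8 of 8 glandular libraries.

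Of the 27 genes of T cell signalling and identity found, 2 reached the minimum count. SKAP1, an adaptor of the T cell receptor, was higher in luminal epithelium, with 30.9 to 529 CPM against 6.82 to 224 CPM in glandular libraries (2.41 ± 0.66, edgeR adjusted p = 0.00613). LEF1, a transcription factor of Wnt signalling and of T cells, was lower, with 0 to 5.15 CPM in luminal and 6.28 to 558 CPM in glandular libraries (-5.46 ± 1.18, adjusted p = 0.000184), and met the minimum count through the glands. CD247, the zeta chain of the T cell receptor, had counts in 5 of 9 luminal, 3 of 8 glandular and 1 of 4 stromal libraries, while CCR7, BCL11B and CD69 had none anywhere. SKAP1 was also higher in luminal epithelium than in stroma (5.93 ± 1.75, edgeR adjusted p = 0.0448), a call kept in 3 of 11 alternatives. In stroma it stood at 1.88 to 29.9 CPM, from few reads, and it met the minimum count through its luminal libraries. The call was lost without mare B, M or U (adjusted p of 0.590, 0.155 and 0.510), with RLE scaling (0.0634), without a filter (0.291), without ribosomal RNA genes (0.0670), with unsummed libraries (0.215) and on the reads of the table of 19 libraries (0.193).

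The summed level of the pan-leukocyte genes (24 found of 25) ran from 294 to 915 CPM in luminal and from 34.1 to 176 CPM in glandular libraries, without overlap, and from 134 to 1137 CPM in stroma. The sums of the T cell genes, 46.4 to 802 CPM in luminal and 47.8 to 623 CPM in glandular libraries, and of the cytotoxic and natural killer genes, 51.5 to 972 CPM and 267 to 1235 CPM in the same order, overlapped. Single genes made up much of the highest sums. These were SKAP1 with 529 of the 802 CPM, LEF1 with 558 of the 623 CPM, ID2 with 512 of the 972 CPM and NCAM1 with 1215 of the 1235 CPM. The last was in cyclic glands of mare M, a library missing from 1 of the authors' tables. Of the 4 pan-leukocyte genes tested, ARHGDIB, a signalling regulator abundant in blood cells, was called and was higher in luminal epithelium (4.99 ± 1.58, edgeR adjusted p = 0.0269). EVI2B, ARHGDIB and LCP1 had the highest mean levels of that list, at 77.0, 68.3 and 50.5 CPM over the 21 libraries.

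Over the genes tested between the epithelia the median log2 fold change was -1.53 for the T cell list (2 genes), 2.95 for the cytotoxic and natural killer list (4), 2.39 for the chemokine list (2), 2.30 for the pan-leukocyte list (4) and -0.20 for the B and plasma cell list (2), against -0.25 over all genes. The 2 T cell genes were SKAP1 at 2.41 and LEF1 at -5.46, so their median gives no direction for the list. The whole T cell list summed higher in luminal epithelium in 6 of 8 biopsies and lower in 2.

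Of the B and plasma cell genes (14 found of 17), 9 had no count, among them CD79A, MS4A1 and PAX5, which define B cells. XBP1, a transcription factor of secretory cells, was lower in luminal epithelium (-2.18 ± 0.65, edgeR adjusted p = 0.0159), and JCHAIN and BANK1 were the other genes of that list with the highest levels, at 75.2 and 18.6 CPM over all libraries, the second at 10.9 CPM without pregnant luminal epithelium of mare C. Of the chemokines and their receptors (23 found of 25) 2 were tested between the epithelia, CXCL16 at 4.69 ± 1.73 (edgeR adjusted p = 0.0820) and CCL28 at 0.10 ± 0.89 (adjusted p = 0.987). CCL28, CXCL16 and CXCL12 were the most abundant of them, at 150 CPM, 44.3 CPM and 41.1 CPM. Each of these means rested on 1 library, without which it was 62.0 CPM for CCL28 (cyclic glands of mare M at 1910 CPM), 22.6 CPM for CXCL16 (pregnant luminal epithelium of mare M) and 20.8 CPM for CXCL12 (cyclic stroma of mare B). CXCL12 was found mainly in stroma with a mean of 171 ± 210 CPM (SD, n = 4) against 16.2 ± 34.2 CPM in luminal libraries (n = 9). Between pregnant and cyclic libraries edgeR tested 13 genes of the 5 lists in luminal and 9 each in glandular epithelium and stroma, and called 0. DESeq2 tested 23, 55 and 53 in the same order and called 0, where it called 90 of 6559, 1 of 12470 and 0 of 10162 genes in all. Of the list genes that edgeR tested, 0 had an unadjusted p under 0.05 in luminal epithelium, 2 in glandular epithelium and 2 in stroma. Over all genes tested by edgeR, these were 339 of 4344, 350 of 4816 and 88 of 2212 in the same order. The smallest edgeR adjusted p was 0.713 for ARHGDIB in luminal and 0.317 for CCL28 in glandular epithelium. Mast cell and granulocyte markers were at most 60.3 CPM in sum, with CPA3, S100A8, S100A9 and MPO at no count, and the red blood cell genes found had no count in any library.

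**Figure D5:**
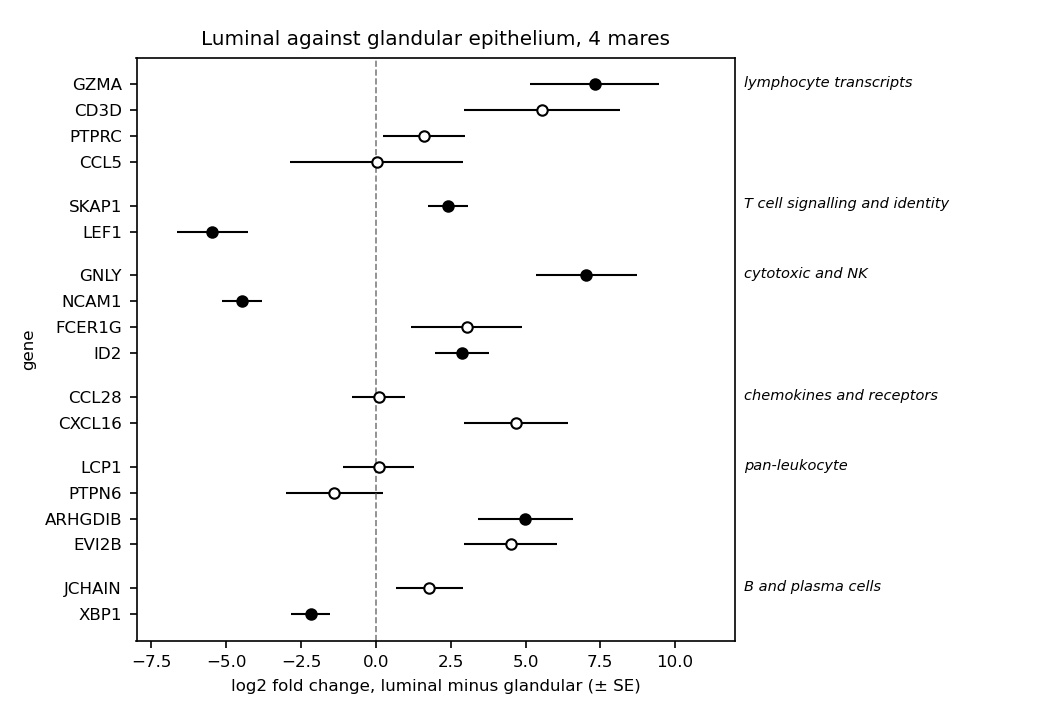
Log2 fold change of luminal minus glandular epithelium with its SE for the lymphocyte transcripts and for the genes of 5 lists that reached the minimum count, from 4 mares; filled points passed an edgeR adjusted p of 0.05 and open points did not. GZMA (7.31) and GNLY (7.03) lay farthest to the right, and LEF1 (-5.46) and NCAM1 (-4.48) farthest to the left.

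ID2, ARHGDIB and XBP1 each lost their call when single mares were left out, as did SKAP1 without mare B or U (adjusted p of 0.192 each) and GNLY without mare C (adjusted p = 0.0533). ID2 was lost without mare B, C or U (0.305, 0.355 and 0.0953), ARHGDIB without B, M or U (0.331, 0.135 and 0.152) and XBP1 without B or M (0.242 and 0.119). LEF1 and NCAM1 kept theirs without each of the mares in turn. Without the mare as a block, ID2, ARHGDIB and XBP1 also missed the threshold (adjusted p of 0.0870, 0.0526 and 0.102). Without a filter ID2 and XBP1 missed it (0.0540 and 0.0618), and with unsummed libraries SKAP1, ID2 and XBP1 did (0.114, 0.435 and 0.184). In pregnant biopsies alone NCAM1 kept its call (adjusted p = 0.0440), while SKAP1 had 0.96 there (adjusted p = 0.888) and LEF1 -4.80 (0.0986).

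Across the 21 libraries, the genes whose levels ran most like those of PTPRC were HSPB6 (Spearman rank correlation 0.843), CRISPLD2 (0.809), ABCA8 (0.795), DPT (0.779) and ECM1 (0.773), out of 7970 genes with a count in at least 10 libraries. For the sum of the 10 genes they were BMS1 (0.718), FGF9 (0.691), SYNE1 (0.687), C1S (0.683) and UPF2 (0.682). The libraries share mares and differ in depth and compartment, so these values are a description without a test.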

How the data were processed

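The authors deposited raw read counts per gene ID for 21 libraries and 2 tables of signal, which hold counts divided by a constant of each library. The submitters' processing notes name Trimmomatic 0.32.2, a read trimmer, and HISAT2 2.0.3, an aligner. The sources used here do not give a counting tool, a genome build or an annotation. Per the labels' protocols, a single-cell kit amplified the RNA, with extra cycles for some libraries that are not named. The design text speaks of 6 mares and the labels of 5. Per the deposited signal, 100% of the values gave whole reads (tolerance 1e-06) in the table of 10307 genes and 21 libraries, which holds 8 of the 10 members, and in that of 10410 genes and 19 libraries, which holds 7. The count test on these reads called, between luminal and glandular epithelium, 498 and 405 genes, and GZMA in both; between pregnant and cyclic libraries it called 19 and 37 genes in luminal and 3 and 5 in glandular epithelium, 0 in stroma, and no member.

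Gene IDs were matched to symbols in the RefSeq table for the horse assembly TB-T2T, used for names and neighbours only (85.9% of IDs matched). Tests ran in R 4.3.3 with edgeR 4.0.16 on the deposited counts: quasi-likelihood F tests, two-sided, TMM scaling, filterByExpr (minimum count 10, minimum total count 15) and Benjamini-Hochberg adjustment over the genes tested (threshold 0.05). The same tests were run on simulated data. SE is the absolute log2 fold change divided by the square root of F. Levels are CPM of the TMM-scaled library size over all 21 libraries. A floor is 3 counts over the summed effective size of a group. Intervals are exact (Clopper-Pearson, 95%), with each read taken as an independent count. Where mares share a letter the labels name the same animal, which pairs the libraries; deviations of the 2 states of a mare from their group means correlated at 0.0082 to 0.0688 in luminal and -0.0365 to 0.0521 in glandular epithelium. P-values of the main tests between compartments measure the spread between these mares. Those of the main pregnancy tests measure the spread between libraries, where the 2 states of a mare count as separate libraries. In the test of the difference of effects they measure the spread between biopsies, some of which share a mare. Alternatives were RLE scaling, no filter, DESeq2 1.42.0, removal of ribosomal RNA genes, the mare as a block or its removal, unsummed libraries, a joint fit and leaving out each library or mare.

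Named genes were all members, the genes of the 5 lymphocyte lists past the threshold in a comparison, the 3 of each list with the highest mean CPM, and the 5 genes most like the most abundant member and the sum, by Spearman rank correlation of log2(CPM + 1). The members and lists were chosen with earlier results of these data known.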

Additional observations from a re-analysis of the deposited data

Results flagged for a closer look

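Of 35 groups of 4 or 5 libraries in which a member or the sum varied, 19 held a library far from the others by Dixon's criterion. The criterion's chance rate of about 5% assumes normally distributed values, so it cannot be set against these sparse counts. In groups with 1 or 2 libraries above 0, such a library is set apart by the absence of reads in the rest.

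In pregnant luminal epithelium the libraries were mare U for CD3D (206 CPM, next 10.3 CPM) and PTPRC (72.2 CPM, next 2.56 CPM), mare M for CD8A (149 CPM, next 5.16 CPM) and CD3E (20.6 CPM), mare C for CD2 (77.8 CPM) and CD4 (63.7 CPM), and mare B for CCL5 (120 CPM, next 5.16 CPM). Each of the 4 mares was thus the high one for a different member. In cyclic luminal epithelium they were mare U for CD3D (74.3 CPM, next 24.2 CPM), mare C for CD3G (51.9 CPM, next 9.32 CPM) and mare J for CD8A (29.8 CPM, next 8.26 CPM).

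In pregnant glands they were mare U for CCL5 (169 CPM, next 4.53 CPM) and for the sum of the 10 genes (205 CPM, next 18.7 CPM), mare B for CD3D (2.28 CPM) and mare C for GZMA (0.567 CPM), the last 2 from 1 count each. In cyclic glands they were mare B for CD3D (14.0 CPM), CD2 (18.1 CPM, next 2.09 CPM) and CD8A (13.2 CPM, next 2.09 CPM), mare C for CD4 (103 CPM) and mare M for CD3G (6.82 CPM, 1 count).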

How the results depend on the processing

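The number of members called was tried under 95 alternatives of the 7 tests, of which 9 called a member, each between luminal and glandular epithelium. There the count of 1 became 2 with DESeq2, ran from 0 to 1 when each mare was left out, and was 0 with unsummed libraries, in pregnant biopsies alone and in cyclic biopsies alone, where GZMA did not reach the minimum count; added after seeing the data, fits without a filter gave 1, 0 and 0. With no replicate block GZMA had 7.48 (adjusted p = 0.00657). The paired fits of pregnancy, with the mare as a replicate block, tested PTPRC alone in luminal and no member in glandular epithelium; without a filter, an alternative added after seeing the data, they tested 9 and 8 members and called 0; in stroma no paired fit was possible because mare M alone had both states. Of 124 fold changes of members, 115 kept direction and side of the threshold, but most of these were of members that the main tests did not call. The 5 that became weaker were all of GZMA between the epithelia, the 1 main call. It was lost without mare B, C or U and, without a filter, in pregnant or cyclic biopsies alone. CCL5 between the epithelia turned to -0.089 with no replicate block, and CCL5 between glands and stroma to 0.97 without mare M (range over mares left out -4.84 to 0.97). PTPRC between the epithelia was -0.60 in pregnant biopsies alone without a filter. ID2 was -0.74 there with the filter and -0.85 without it. Of 124 fold changes of list genes, 54 lost the call. The cause was not tested.

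Without CD4, CCL5 and PTPRC the log2 ratio of the sum was 1.87 (pregnant over cyclic luminal, 0.57 for all members), -3.26 (glandular, -0.05) and 4.28 (luminal over glandular, 2.03). With each library left out the glandular ratio ran from -2.36 (without pregnant mare U) to 0.34.

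Counts of all genes called moved by over 1.5 times in luminal pregnancy (19; 90 with DESeq2, 12 without a filter or with the block, 9 with both, 1 in the joint fit, 2 to 37 with a library left out), glandular pregnancy (3; 0 with RLE or the block, 34 without a filter, 2 with the block and no filter, 1 with DESeq2, 7 in the joint fit, 0 to 28), stroma (0; 2 without a filter, 3 in the joint fit, 0 to 2), the difference of effects (1; 40 with DESeq2, 0 without ribosomal RNA), luminal against glandular (498; 1159 with DESeq2, 230 to 411, 247 unsummed, 130 in pregnant and 120 in cyclic biopsies alone, and 252, 76 and 60 for these without a filter), luminal against stroma (61; 310 with DESeq2, 29 without a filter, 18 to 36, 34 unsummed) and glandular against stroma (63; 272 with DESeq2, 20 without a filter, 0 to 45, 99 with no block). Total counts per library and levels of 1 to 3 reads limit most members.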
